A study of Mus musculus with 2 samples.

Results

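CD8 T cells of the steatohepatitic mouse liver were studied as the barcodes of 2 single-cell libraries that carried T cell receptor transcripts and the CD8 coreceptor. A barcode was a member when it held at least 500 UMIs (unique molecular identifiers, 1 for each captured RNA molecule), at most 50% of them from mitochondrial genes, at least 2 detected genes of Cd3d, Cd3e, Cd3g, Trac and Trbc2, at least 1 UMI of Cd8a or Cd8b1, and at most 2 detected genes of the 9 macrophage and B cell genes C1qa, C1qb, C1qc, Clec4f, Cd5l, Cd79a, Cd79b, Pax5 and Ebf1. The rule held for 241 of 50078 barcodes, of which 53 of 30078 were in the wild-type (WT) library and 188 of 20000 in the HKO library. The members were thus chosen by measured UMIs of these genes, so the levels of the rule genes are a description.

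HKO mice lacked miR-33 in hepatocytes, through Cre recombinase under the albumin promoter, a hepatocyte promoter, and a loxP-flanked Mir33. The label of this library gives AlbCRE as its genotype. Both genotypes were littermates that had received CD-HFD, a choline-deficient high-fat diet used to induce steatohepatitis, for 6 months from 8 weeks of age, and no group on another diet was analysed here. Each library was a pool of 3 livers, in which hepatocytes and sorted live non-parenchymal cells had been mixed 1:1 before droplet capture, so with 1 library per genotype there was no replicate and no test, and every interval of a gene or share below is a 95% exact interval for counting error only. Intervals of list medians come from the order of the genes and cover the spread between genes. The HKO barcode sequences look like those of a later kit than the version 2 kit given for the study, which is a sign and no proof that the libraries were made with different kits, and a difference in kit cannot be told apart from the genotype.

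CD8 T cells recognise peptides on MHC class I through the T cell receptor and CD8, and kill target cells with perforin, granzymes and Fas ligand. Chronic stimulation brings inhibitory receptors such as PD-1 and the transcription factor TOX, and residency in the liver is linked to the chemokine receptor CXCR6. In steatohepatitis, CXCR6+ PD-1+ CD8 T cells are known as a population that can damage hepatocytes. CD8αβ T cells express Cd8a and Cd8b1, whereas some innate-like T cells carry CD8αα and receptors better known from NK cells.

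The RNA that HKO hepatocytes lacked is shown for orientation, since the albumin promoter does not target T cells. It is the mature miR-33-5p of RefSeq (GRCm38.p6, chr15:82198127-82198147, plus strand), with its seed, bases 2 to 8, in capitals.
mmu-miR-33-5p: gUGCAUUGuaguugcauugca
The 3' counts of polyadenylated RNA do not measure this 21-base RNA, and the genotype labels could not be checked with it.

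The rule fixed that Cd8 and T cell receptor genes were found, so their counts describe the members and do not check the label. Of the 53 WT barcodes 45 had a UMI of Cd8a and 39 of Cd8b1, and of the 188 HKO barcodes 130 and 139. Both coreceptor genes were seen together in 31 WT and 81 HKO barcodes, Cd8a alone in 14 and 49, and Cd8b1 alone in 8 and 58. Cd3e, a signalling chain of the T cell receptor complex, was detected in 51 WT and 163 HKO barcodes. Of the genes that the rule did not use, Nkg7, a component of cytotoxic granules, was found in 50 WT and 164 HKO barcodes, Gzmk was found in 21 WT and 76 HKO barcodes and Pdcd1, which encodes PD-1, in 14 and 37. Cd4 had 1 UMI in WT and 3 in HKO. Just inside the rule, 12 WT and 71 HKO barcodes had a single Cd8 UMI, and 2 and 21 had 2 of the 5 T cell genes. Just outside it, 9 WT and 23 HKO barcodes had Cd8 with 1 of the 5 T cell genes, and 2 and 17 had 3 or more of the 9 limited genes.

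The libraries differed in depth. The median CD8 T cell held 7123 UMIs in WT (range 2658 to 13574) and 2808.5 in HKO (range 1108 to 24254), with 2845 and 1471 detected genes. Hepatocyte transcripts made up a median of 5.07% and 2.79% of the UMIs of a barcode. From these transcripts, free RNA that entered the droplets was estimated at 41.5% of the CD8 T cell UMIs in WT and 33.3% in HKO, and it was subtracted before levels were scaled to CPM, UMIs per 1000000 of those left. For a single gene, a ratio or interval is given only where estimated free RNA was under 25% of the UMIs in each library, whereas list counts and medians include genes above this limit. The HKO library also held a few barcodes with markers of another cell type. Stellate cell markers summed to 472 UMIs with 9 of 9 markers detected in HKO and to 0 UMIs in WT, endothelial markers to 409 UMIs (10 of 10) and 34 UMIs (9 of 10), and B and plasma cell markers to 5209 UMIs (7 of 10) and 21 UMIs (4 of 10). Of the B and plasma cell genes in HKO, 1 barcode held 99.5% of the 4445 Igkc UMIs, and 1 barcode held 99.6% of the 739 Jchain UMIs. Macrophage markers summed to 114 and 75 UMIs (13 of 15 in each), dendritic cell markers to 187 (8 of 11) and 99 (6 of 11), and neutrophil markers to 4 and 0. The part of these cells in the results was not tested. The barcodes that were deep or held such markers (7 WT, 17 HKO) were left out in an alternative.

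CD8 T cells were 0.179% (0.134 to 0.234) of the 29620 WT barcodes that passed the depth and mitochondrial limits and 1.03% (0.888 to 1.19) of the 18260 HKO barcodes. These denominators depended on how many droplets of free RNA depth each table contained (23132 in WT and 8565 in HKO) and on the fixed mixture, and neither value is a share of the tissue. The HKO table held exactly 20000 barcodes and none under 770 UMIs, close to the commonest depth of 813 UMIs, so it lacked the shallower droplets of free RNA and the HKO free RNA profile came from the deeper ones. Within the barcodes that met the T cell part of the rule, the share with CD8 was 41.4% (32.8 to 50.4) of 128 in WT and 42.5% (37.9 to 47.3) of 442 in HKO, and the intervals overlapped. With at least 2 Cd8 UMIs it was 32.03% (24.1 to 40.9) and 26.5% (22.4 to 30.8), so that the order turned and the HKO share moved by over 1.5 times. These shares depend on the depth, which differed between the libraries.

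The T cells in which Cd8 was not detected (75 WT and 254 HKO barcodes) were the nearest class, since only Cd8a and Cd8b1 separated them from CD8 T cells. Some cytotoxic and chemokine genes were higher in CD8 T cells in both libraries, and some naive and helper T cell genes lower. Among 5460 genes with enough UMIs, 46 (0.842%) exceeded 2-fold upwards in both libraries and 166 (3.04%) exceeded it downwards. Of 12 cytotoxic genes, Gzma and Nkg7 were past this limit upwards and none downwards. Of 7 chemokine and cytokine genes, Ccl3 and Ccl4 were past it upwards. Of 7 naive and recirculating genes, Lef1, Il7r and Satb1 were past it downwards.

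Ccl5, a chemokine that attracts T cells and monocytes, stood at 13748 CPM in WT CD8 T cells against 7629 in WT T cells without detected Cd8, and at 18302 against 7355 in HKO. The ratio was 1.80 (1.69 to 1.92) in WT and 2.49 (2.40 to 2.58) in HKO. Nkg7 gave 2.10 (1.74 to 2.54) and 2.01 (1.78 to 2.27). Ccl4, another T cell chemokine, gave 4.98 (3.75 to 6.71) and 3.10 (2.70 to 3.57), although 1 WT barcode held 68.2% of its UMIs. Pdcd1 was at 95.3 against 53.2 CPM in WT, and at 121 against 33.4 in the HKO library. Its ratio was 1.79 (0.81 to 4.26) and 3.63 (2.10 to 6.55). Only the HKO interval excluded 1, and the difference between the libraries was not tested. Tox gave ratios of 1.36 (1.19 to 1.54) and 2.04 (1.86 to 2.23).

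Ranked highest over both libraries were Ier3 and the unnamed transcript Gm44174. Ier3, an immediate early gene linked to survival, had 6.58 (2.26 to 26.1) in WT and 4.77 (2.93 to 8.10) in HKO. Gm44174 had 7.22 (3.29 to 18.7) and 3.80 (2.48 to 5.97). It lies between Cd8b1 and Cd8a on chromosome 6 and ends at 71373284, just before Cd8a starts at 71373427 on the same strand. Its rank is therefore not independent of the rule that separated the 2 classes. Tent5c, a poly(A) polymerase, had 2.51 (1.29 to 5.02) and 2.19 (1.38 to 3.52), and the surface protein gene Cd7 had 2.75 (1.78 to 4.38) and 1.86 (1.37 to 2.53). Chsy1, a chondroitin synthase, and Gm26827 were both higher, but they overlap on chromosome 7 (66109515 to 66173798 and 66109515 to 66173121), so their reads could not be assigned with certainty. Tcrg-C2, a constant segment of the gamma chain with near-identical copies, stood at 2.25 (1.30 to 4.04) and 1.77 (1.04 to 3.06), while Trdc of the delta chain was at 0 UMIs in the CD8 T cells of both libraries.

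Cd4, the helper T cell coreceptor, had 1 UMI in WT CD8 T cells against 49 in the class without detected Cd8, and 3 against 52 in HKO. Kcnq5, a potassium channel, had 1 against 152 UMIs in WT and 68 against 458 in HKO. Ccr2, a receptor for monocyte-attracting chemokines, was at 0.26 (0.11 to 0.56) and 0.13 (0.04 to 0.29). Itgb7, the beta chain of a gut-homing integrin, was at 0.32 (0.19 to 0.53) and 0.32 (0.19 to 0.52), and Icos, a costimulatory receptor, at 0.18 (0.10 to 0.30) and 0.35 (0.25 to 0.47). Lef1, a transcription factor of naive T cells, gave 0.43 (0.30 to 0.61) and 0.35 (0.24 to 0.49), and Il7r, the interleukin-7 receptor, 0.30 (0.22 to 0.41) and 0.35 (0.27 to 0.45). March3 (a ubiquitin ligase), Nebl (an actin-binding protein), Herc6 (a ubiquitin ligase induced by interferon), Podnl1, Itga2 (an integrin of NK cells) and Ighm completed the 10 lowest ranked genes, with ratios between 0.08 and 0.32. The WT comparison class was estimated at 79.4% free or hepatocyte RNA, with 1 barcode of 142397 UMIs. Without subtraction the number of genes lower in both libraries was 36, and without deep barcodes it was 115.

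**Figure D1:**
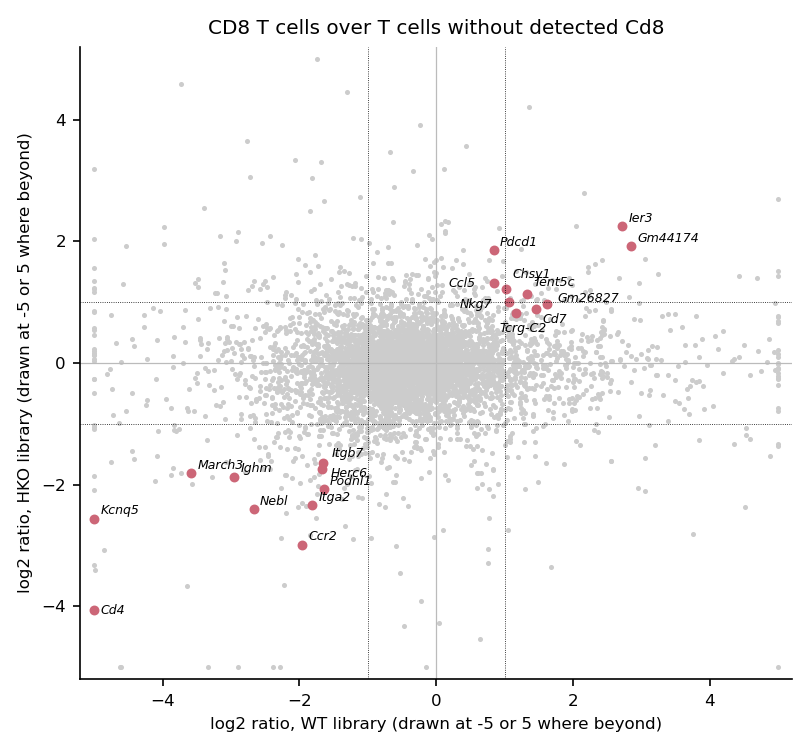
Each grey point is 1 of the genes measured in the class comparison, placed by its log2 ratio of CD8 T cells over T cells without detected Cd8 in the WT library (x axis) and in the HKO library (y axis), with 2-fold lines dotted. The named genes are in red, among them Ier3 and Gm44174 above 1.9 on both axes, and Cd4 and Kcnq5 at the lower left, drawn at -5 where beyond. Gm44174 lies next to the rule gene Cd8a.

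NK and ILC1 cells, which kill without a T cell receptor, formed the other comparison (28 WT and 58 HKO barcodes with at least 2 of 7 NK genes and at most 1 T cell gene). Of 4019 genes, 142 (3.53%) exceeded 2-fold upwards in CD8 T cells of both libraries and 239 (5.95%) downwards, against 83 and 104 without free RNA subtraction. Of 17 genes of T cell receptor signalling, 7 were higher, among them Cd28, a costimulatory receptor, with 2.33 (1.45 to 3.92) in WT and 2.28 (1.55 to 3.48) in HKO. Themis, which acts in T cell selection, had 279 UMIs in WT CD8 T cells and 0 in NK and ILC1 cells, and was at least 42.1-fold higher against a floor of 3 UMIs over the class. In HKO the ratio was 24.7 (12.4 to 57.4). Gzmk had 47 and 104 UMIs in CD8 T cells and 0 in NK and ILC1 cells of either library, so it was at least 7.12-fold and at least 9.16-fold higher. Ctla4 gave 4.40 (1.75 to 14.2) and 2.75 (1.74 to 4.60).

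Of 12 measured cytotoxic genes, Gzmk was higher than in NK and ILC1 cells and Serpinb6b lower past 2-fold in both libraries. The list medians were -0.37 in WT and -0.57 in HKO on the log2 scale, against -0.09 and -0.16 over all genes. Gzma was lower, at 0.30 (0.22 to 0.41) and 0.66 (0.53 to 0.82). Xcl1, a chemokine for cross-presenting dendritic cells, was at 0.22 (0.16 to 0.30) and 0.10 (0.07 to 0.14). The NK lectin receptor gene Klrb1b had 3 UMIs against 81 in WT and 0 against 120 in HKO, and Aoah, a lipopolysaccharide-degrading enzyme, 10 against 42 and 1 against 67. Tbx21, the transcription factor T-bet, was at 0.28 (0.16 to 0.46) and 0.42 (0.27 to 0.68), whereas Tox was at 1.43 (1.22 to 1.70) and 1.34 (1.18 to 1.53).

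Between the genotypes, several cytotoxic genes, as well as Tox and Themis, had ratios near 1. In the following, ratios are HKO over WT. Gzmk stood at 213 CPM in WT and 224 in HKO (ratio 1.05, 0.74 to 1.52). Prf1, the pore-forming perforin, was at 81.7 and 82.1 with a ratio of 1.01 (0.56 to 1.87). Gzmb was at 390 and 341 (ratio 0.87, 0.67 to 1.15), Nkg7 at 1738 and 1566 (0.90, 0.79 to 1.02), and Fasl, the Fas ligand, at 141 and 119 (0.84, 0.53 to 1.36). Tox was at 2704 and 2905 (1.07, 0.97 to 1.18), and Themis at 1259 and 1341 (1.06, 0.92 to 1.23). Every one of these intervals held 1, but some of the genes, such as Fasl, were chosen after their values were seen. Ccl5 was somewhat higher in HKO, at 1.33 (1.28 to 1.39), and Ctsw, a cathepsin of cytotoxic lymphocytes, lower, at 0.51 (0.36 to 0.72).

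Over all 5173 genes measured with at least 30 UMIs, 9.99% exceeded 2-fold towards HKO and 7.83% towards WT, and the median of all genes was -0.02 on the log2 scale. Among the 2621 of them with free RNA under 25%, to which most genes of the T cell lists belong, the shares were 3.05% and 3.7%, and the median was -0.07. The counts past 2-fold of each list below are to be read beside these shares. Of the 12 measured cytotoxic genes, 1 was 2-fold higher (Gzma) and 0 were lower, around a list median of -0.17 (-0.26 to 0.08). That median changed sign with the processing, to 0.44 after thinning, 0.38 with equal weight per barcode and no subtraction, and 0.04 without deep or marker-positive barcodes. Gzma, a granule protease, had 73 UMIs in 9 WT barcodes and 314 in 34 HKO barcodes, and the ratio was 2.05 (1.58 to 2.68). A single WT barcode held 57.5% of the WT UMIs, and without the highest barcode of each library the ratio was 4.22. None of the 9 measured genes named for auto-aggressive CD8 T cells passed 2-fold in either direction, and their median log2 ratio was 0.08 (-0.64 to 0.34).

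**Figure D2:**
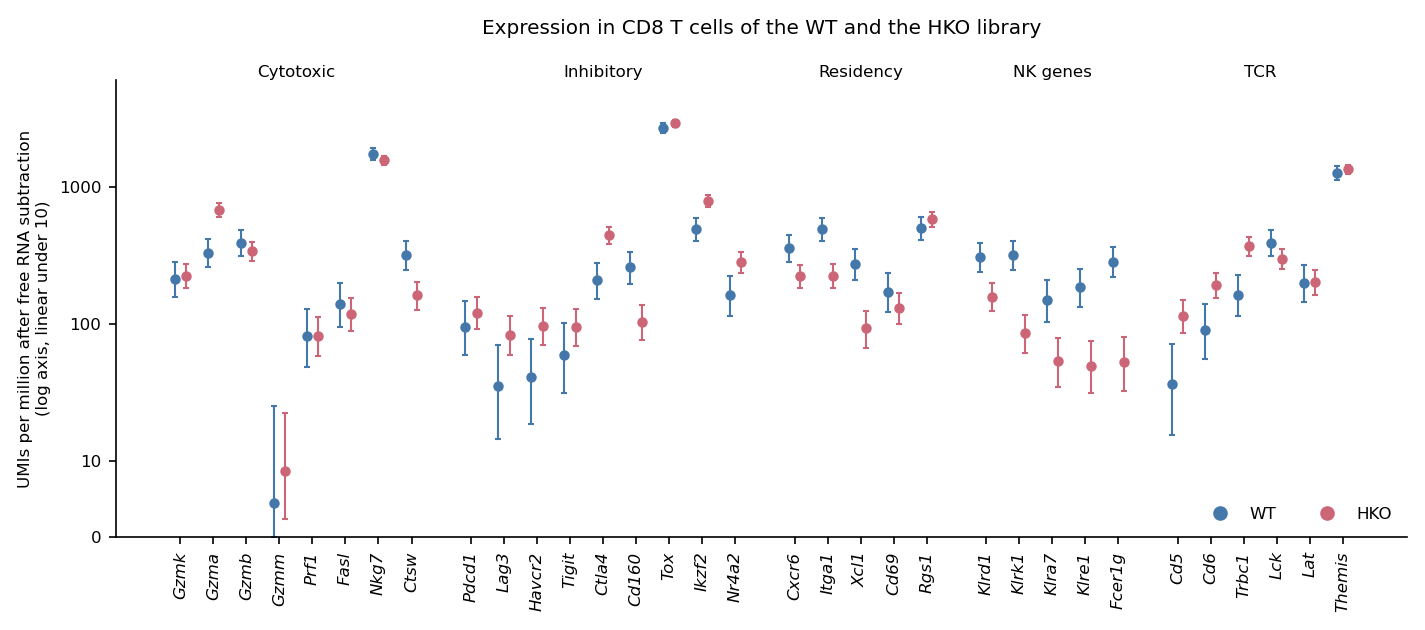
Expression in CD8 T cells as CPM after subtraction of free RNA (y axis, logarithmic above 10) for genes of 5 groups (x axis), with the WT library in blue and the HKO library in red. Bars are 95% exact Poisson intervals for counting error, and each point is 1 library without replicates. Gzmk, Prf1 and Tox lie side by side, Ctla4 and Cd5 are higher in HKO, and Klrk1, Klre1 and Fcer1g are lower in HKO, of which Klrk1 turned to 1.16 without the NK gene barcodes.

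Inhibitory receptors and exhaustion-associated regulators leaned towards HKO. Of 17 measured genes, 3 exceeded 2-fold towards HKO (18 are on the list) and 2 towards WT, 13 had a ratio above 1, and the list median was 0.64 on the log2 scale (0.10 to 0.74) against -0.02 over all genes. Ctla4, a receptor that competes with CD28, was at 207 CPM in WT (46 UMIs in 19 barcodes) and 444 in HKO (206 UMIs in 85 barcodes), a ratio of 2.14 (1.55 to 3.01). Lag3, which binds MHC class II, had 8 UMIs in 5 WT barcodes and 39 in 27 HKO barcodes, with a ratio of 2.38 (1.098 to 5.90). Havcr2, encoding TIM-3, had 9 UMIs in 5 and 45 in 26 barcodes, with 2.38 (1.15 to 5.53).

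Ikzf2, the transcription factor Helios, was at 494 and 787 CPM with a ratio of 1.60 (1.28 to 1.99), and Nr4a2, a nuclear receptor induced by T cell receptor signals, at 162 and 282 with 1.74 (1.19 to 2.59). Pdcd1 was at 95.3 and 121, and its ratio of 1.27 (0.76 to 2.21) held 1. Tigit, an inhibitory receptor for nectin-like ligands, was at 59.0 and 94.97 (1.61, 0.85 to 3.26). The 2 genes lower in HKO were Cd160, a receptor shared with NK cells, at 259 and 103 (0.40, 0.27 to 0.60), and Batf, an AP-1 family factor, at 163 and 79.9 (0.49, 0.30 to 0.80).

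NK receptors found on T cells were lower in HKO. All 9 measured genes had a ratio under 1, 6 were at least 2-fold lower, and the median log2 ratio was -1.48 (-1.91 to -0.83). Fcer1g, an adaptor that carries signals of NK receptors (chromosome 1, 171229572 to 171234365), had 64 UMIs over 11 WT barcodes and 28 over 11 HKO barcodes, a ratio of 0.19 (0.11 to 0.29). Klrk1, the activating receptor NKG2D, was at 317 and 85.6 CPM (0.27, 0.18 to 0.40), Klre1 at 186 and 49.6 (0.27, 0.15 to 0.46), and Klrd1, the CD94 chain, at 308 and 157 (0.51, 0.36 to 0.72). After thinning to 1000 UMIs, by 1 random draw that left fewer UMIs per gene, the ratio of Klrd1 turned to 2.95, and the list median was -0.60. Without 12 WT and 12 HKO barcodes rich in NK genes, described below, the list median was 0.07 and Klrk1 was at 1.16. Ncr1, which encodes NKp46, had 19 UMIs in 6 WT barcodes and 0 in HKO. Members of the Klra family have near-identical copies and their counts are uncertain.

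Chemokine receptors and adhesion genes centred on -0.79 on the log2 scale (interval of the median -1.14 to -0.37), where 2 of 10 were 2-fold or more lower and 0 higher. Cxcr6 was at 358 and 222 CPM (0.62, 0.46 to 0.84) and Cxcr3, a receptor for interferon-induced chemokines, at 118 and 51.6 (0.44, 0.24 to 0.79). Itgal and Itgb2, the chains of the integrin LFA-1, had ratios of 0.54 (0.43 to 0.69) and 0.51 (0.37 to 0.71). Itgb7 gave 0.45 (0.24 to 0.86), and Itga4, its partner chain, 0.78 (0.67 to 0.90), which turned to 1.12 with equal weight for each barcode and no subtraction.

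Effector memory genes centred on -0.21 on the log2 scale (interval of the median -0.98 to 0.09), where 2 of 14 were lower past 2-fold. S100a4, a calcium-binding protein of motile cells, was at 739 and 349 CPM (0.47, 0.38 to 0.59), Cxcr3 was the other gene past the limit, and S100a6 was at 2109 and 1067 (0.51, 0.45 to 0.58). Eomes, a transcription factor of effector and memory CD8 T cells, was at 191 and 164 (0.86, 0.58 to 1.29) and Tbx21 at 118 and 114 (0.97, 0.60 to 1.61). Among 7 naive and recirculating genes none was higher past 2-fold and 2 were lower. Lef1 was one of them, at 222 and 89.8 (0.40, 0.26 to 0.62), and most UMIs of the other, Igfbp4, were free RNA in both libraries (206 of 222 and 285 of 288). Tcf7, which maintains memory and progenitor cells, had 19 and 34 UMIs (0.85, 0.47 to 1.57), and Il7r 55 and 85 (0.73, 0.52 to 1.05).

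T cell receptor signalling genes centred on -0.16 on the log2 scale (interval of the median -0.48 to 0.14), where 3 of 18 were 2-fold or more higher and 0 lower. Cd5, which dampens T cell receptor signals, had 8 UMIs in 5 WT barcodes and 53 in 39 HKO barcodes (3.16, 1.49 to 7.69). The related Cd6 had 20 UMIs in 12 and 89 in 62 barcodes (2.11, 1.29 to 3.62). Trbc1, a constant segment of the receptor beta chain with a near-identical partner in Trbc2, had 36 UMIs in 11 and 171 in 67 barcodes (2.27, 1.58 to 3.35). Lck, the first kinase of the pathway, was at 390 and 298 (0.76, 0.58 to 1.01), and Lat, its scaffold, at 199 and 201 (1.01, 0.70 to 1.47).

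Liver residency genes centred on -0.22 on the log2 scale (interval of the median -1.13 to 0.53), where 2 of 10 were 2-fold or more lower and 0 higher. Those were Itga1, the CD49a integrin chain of liver-resident lymphocytes, at 491 and 224 CPM (0.46, 0.35 to 0.60), and Xcl1, at 272 and 92.5 (0.34, 0.22 to 0.51). Without the same barcodes rich in NK genes, Itga1 was at 0.99, Xcl1 turned to 2.03 and the list median was 0.54. Rgs1, a regulator of chemokine receptor signalling, was at 499.6 and 580 (1.16, 0.93 to 1.46) and Cd69, which retains cells in tissue, at 172 and 131 (0.76, 0.50 to 1.17).

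MHC class I presentation genes centred on -0.38 on the log2 scale (interval of the median -0.73 to -0.17). Of these, 1 of 12 was lower past 2-fold (Tap2, a chain of the peptide transporter, 0.44, 0.26 to 0.75). Over all genes measured the share was 7.83%, and 3.7% with free RNA under 25%. With equal weight for each barcode and no subtraction the list median was 0.00, against -0.22 without subtraction alone. Cytokine receptors had 1 of 17 lower past 2-fold, Il18rap of the interleukin-18 receptor (0.44, 0.25 to 0.79, but 1.59 after thinning), and a median of -0.31 (-0.48 to 0.09). Interferon response genes centred on 0.25 (-0.22 to 0.99) over 10 genes, of which 6 had free RNA under 25%. Over those 6 the median was -0.10. For the list it was -0.11 without deep or marker-positive barcodes, -0.19 with 2 Cd8 UMIs and 0.39 without subtraction, so its sign changed with the processing. The interferon-induced Ifi27l2a was at 282 and 489 CPM (1.73, 1.30 to 2.33), and Ifi203 at 325 and 300 (0.92, 0.69 to 1.24). Cytokines and chemokines centred on 0.13 (-1.56 to 0.41) over 7 genes, and Ifng, encoding interferon gamma, had 20 UMIs in 12 WT and 46 in 36 HKO barcodes (1.096, 0.64 to 1.96). Immediate early genes centred on 0.09 (-0.37 to 0.43), where 1 of 17 was 2-fold or more higher and 3 lower, and over the 6 of them with free RNA under 25% the median was -0.29. Past it were Egr1, with 75.5% free RNA, and in the other direction Ier5, Nr4a1 and Zfp36l2, an mRNA decay factor (0.45, 0.36 to 0.57). Genes of glucose and lipid metabolism had a median of 0.10 (-0.62 to 1.59) over 11 genes, of which 7 had 25% or more free RNA, and it was -0.27 without subtraction and 1.26 after thinning. Of the 3 genes of this list that were 2-fold or more higher, Cpt1a and Gapdh had 25% or more free RNA. The third, Fabp5, gave 4.80 (1.73 to 18.5), but 1 barcode held 81.1% of its 37 HKO UMIs. The gene of this list that was lower past 2-fold was Slc2a3, which encodes a glucose transporter, at 113 CPM from 25 UMIs in WT and 43.0 CPM from 20 UMIs in HKO (0.38, 0.20 to 0.71). Of the cell cycle genes, 3 of 18 reached 30 UMIs, and Mki67, a marker of division, had 13 UMIs in 5 WT and 10 in 9 HKO barcodes.

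**Figure D3:**
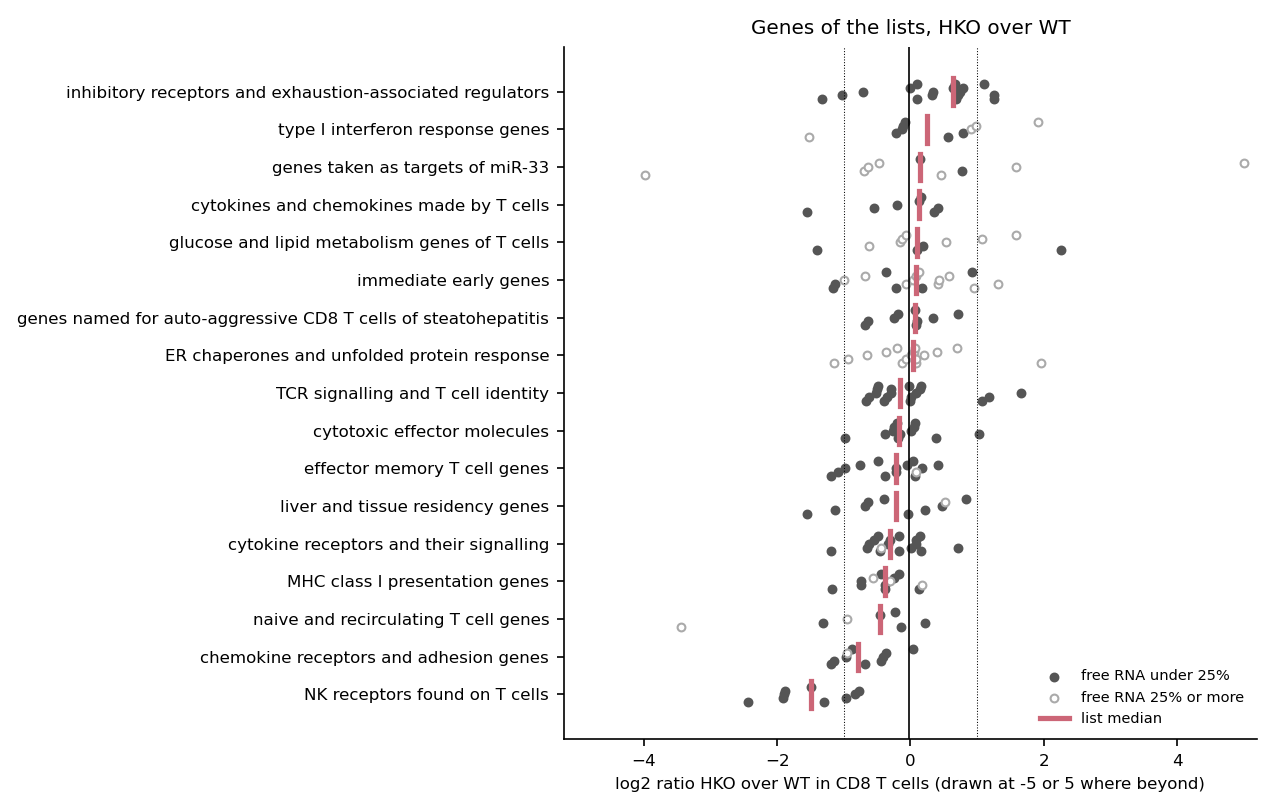
Each point is 1 gene with at least 30 UMIs, placed by its log2 ratio HKO over WT in CD8 T cells (x axis, drawn at -5 or 5 where beyond), for the lists named on the y axis. Open points have 25% or more estimated free RNA, red bars are list medians, the solid line is the median of all genes (-0.02) and dotted lines mark 2-fold. NK receptors lie lowest (median -1.48, but 0.07 without the NK gene barcodes) and inhibitory receptors highest (median 0.64).

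Genes taken here as miR-33 targets could hardly be read in CD8 T cells. Abca1, the cholesterol exporter, had 22 UMIs in WT with 22.8 estimated as free RNA, and 52 with 43.1 in HKO. Crot, which acts in peroxisomal fatty acid oxidation, had 228 UMIs with 207 estimated as free RNA, and 221 with 218. Of 9 measured targets, 2 had free RNA under 25%. Abcg1, a cholesterol exporter outside the hepatocyte program, had 16 UMIs in 9 WT and 37 in 29 HKO barcodes (1.101, 0.60 to 2.12), and Ski, a repressor of TGF-beta signals, 13 and 40 UMIs (1.71, 0.89 to 3.48). None of the 16 measured genes of ER chaperones and the unfolded protein response had free RNA under 25%, and no level of a single gene is given for them.

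Across all genes with at least 50 UMIs, at least 10 barcodes, no barcode over 20% of the UMIs and free RNA under 25%, 1760 could be ranked. Maf, a transcription factor of chronically stimulated and regulatory T cells (chromosome 8, 115682942 to 115707794), was among the 12 highest in HKO, with 69 UMIs in 24 WT barcodes and 344 in 82 HKO barcodes (2.52, 1.94 to 3.31). St6galnac3, a sialyltransferase, had 55 UMIs in 17 and 278 in 92 barcodes (2.40, 1.79 to 3.27), and Setbp1, which binds the SET protein, 94 in 28 and 458 in 104 (2.34, 1.87 to 2.96). Mir155hg, the host transcript of the T cell activation miRNA miR-155, had 11 UMIs in 9 and 53 in 33 barcodes (2.29, 1.18 to 4.87). Cemip2, a hyaluronidase, had the highest ratio at 4.67 (2.00 to 13.3), from 6 WT and 50 HKO UMIs, and it was 1.93 without the deep and marker-positive barcodes. Brd9 and Hira (chromatin factors), Ksr1 (a MAP kinase scaffold), Parp14 (an ADP-ribosyltransferase), Slc10a7, Oprm1 (an opioid receptor) and A430093F15Rik had ratios of 2.31 to 2.88, each from 8 to 15 WT UMIs.

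The 12 lowest ratios were led by Fcer1g, and Klre1, Xcl1, Cd160 and Tcrg-C2 (0.36, 0.23 to 0.56) were among them. Ccnd3, cyclin D3, was the most abundant, with 236 UMIs in 48 WT and 220 in 112 HKO barcodes (0.44, 0.36 to 0.53). Pdzd8, Ubtf, Ube2j2, Nbea, Rps27rt and Gm47283 gave ratios of 0.22 to 0.44. Rps27rt is a copy of a ribosomal protein gene, and its reads may belong to the parent gene.

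Some of the genes lower in HKO were counted mostly in few WT barcodes. After the values had been seen, barcodes were divided into exclusive subsets: those with at least 2 detected of Fcer1g, Tyrobp, Klre1, Klra7 and Klra9 (NK gene subset), those with Gzma among the rest, those with Pdcd1, Lag3, Havcr2 or Ctla4 among the rest (inhibitory receptor subset), and the remaining ones. The first subset was formed from genes seen to be lower in HKO, and the Gzma and inhibitory receptor subsets from genes of which most were seen to be higher there. Differences of their shares between the libraries follow in part from that choice and are a description. The NK gene subset was 12 of 53 WT barcodes, 22.6% (12.3 to 36.2), and 12 of 188 HKO barcodes, 6.38% (3.34 to 10.9). After every barcode was thinned to 1000 UMIs, it was 6 of 53, 11.3% (4.27 to 23.03), and 6 of 188, 3.19% (1.18 to 6.82), and the intervals overlapped. In WT this subset held 55 of 60 Xcl1 UMIs, 62 of 70 Klrk1 UMIs and 79 of 112 Itga1 UMIs. Cd8a was detected in 12 of its 12 WT barcodes and Trac in 11, but Cd8b1 in only 2, against 37 of the other 41.

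In the HKO NK gene subset, Cd8a was found in 10 of 12 barcodes and Cd8b1 in 3, against 136 of the other 176. Itga1 was detected in 8 of 12 HKO barcodes of the subset and Ikzf2 in 10, and in WT in 11 and 10 of 12. Pdcd1 was at 0 UMIs in this subset in both libraries. All 19 Ncr1 UMIs and all 12 Klrb1c UMIs of the WT CD8 T cells lay in it, and in NK and ILC1 cells these genes are defining. The part of NK cell RNA in these barcodes was not tested.

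Without the NK gene subset, 373 of 4550 measured genes (8.20%) were past 2-fold towards WT, and with it 405 of 5173. Klre1 and part of the NK receptor list had formed the subset, so their values follow in part from its removal. Klrk1 had a ratio of 1.16 in place of 0.27, Klre1 of 0.94 in place of 0.27, Itga1 of 0.99 in place of 0.46 and Xcl1 of 2.03 in place of 0.34. The NK receptor list moved from a median log2 ratio of -1.48 to 0.07, and the residency list from -0.22 to 0.54. Ctla4 (1.79), Lag3 (2.15), Havcr2 (2.13) and Maf (1.75) stayed above 1, and the inhibitory list was at 0.34. Cxcr3 (0.43), Itgal (0.61) and S100a4 (0.33) stayed below 1.

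The Gzma subset was 6 WT and 32 HKO barcodes, 11.3% (4.27 to 23.03) and 17.02% (11.9 to 23.2), and after thinning 7.55% (2.09 to 18.2) and 14.9% (10.1 to 20.8). In it, 5 of 6 WT and 16 of 32 HKO barcodes had Gzmb, and Pdcd1 was found in 5 of 6 and 4 of 32, and Tox in 6 of 6 and 29 of 32. The inhibitory receptor subset was 21 WT and 89 HKO barcodes, 39.6% (26.5 to 54.0) and 47.3% (40.0 to 54.7), and after thinning 11.3% (4.27 to 23.03) and 29.3% (22.9 to 36.3), intervals that just overlapped. It held 389 of 599 Tox UMIs in WT and 841 of 1354 in HKO, and 52 of 69 and 241 of 344 Maf UMIs. Neither gene was used to form it. Tox was at 4299 CPM there against 1139 in the remaining subset in WT, and at 3663 against 1918 in HKO. In the remaining subset, 14 and 55 barcodes, Tcf7 was detected in 3 and 13 barcodes and Il7r in 5 and 15.

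**Figure D4:**
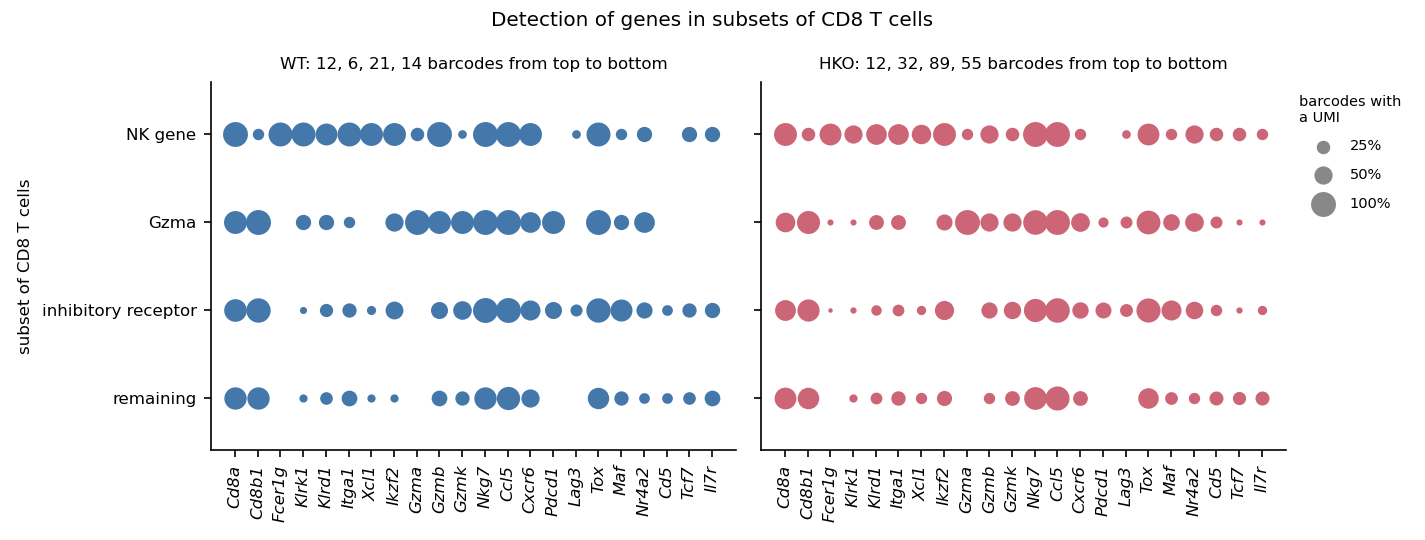
Share of barcodes with at least 1 UMI of a gene (dot area, in percent) for genes on the x axis and the subsets of CD8 T cells on the y axis, with WT at the left (12, 6, 21 and 14 barcodes) and HKO at the right (12, 32, 89 and 55). The NK gene subset shows Cd8a with little Cd8b1, and Itga1 and Ikzf2 in most barcodes. Shares are at full depth, and WT barcodes were deeper.

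Detection per barcode was compared after thinning to 1000 UMIs, which kept all 53 and 188 barcodes. Ctla4 was then detected in 4 WT barcodes, 7.55% (2.09 to 18.2), and 47 HKO barcodes, 25% (19.0 to 31.8), intervals that did not overlap (19 and 85 barcodes unthinned). It was found in 0.567% and 0.300% of 3000 barcodes of free RNA depth, whose median depths were 2597 and 839 UMIs. Pdcd1 was detected in 3.77% (0.461 to 13.0) and 9.04% (5.36 to 14.1), Gzmk in 9.43% (3.13 to 20.7) and 15.4% (10.6 to 21.4), Cxcr6 in 15.1% (6.75 to 27.6) and 16.5% (11.5 to 22.6), and Tox in 62.3% (47.9 to 75.2) and 70.2% (63.1 to 76.6). These intervals overlapped.

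Variable segments of the T cell receptor were caught in few barcodes. They lie far from the 3' end that was counted. 10 of 53 WT barcodes and 21 of 188 HKO barcodes showed a Trbv segment. Trbv3 was found in 6 of the 10 WT barcodes, 60.0% (26.2 to 87.8), and in 4 of the 21 HKO barcodes, 19.0% (5.45 to 41.9). Trav3-4 was found in 5 of 10 WT barcodes with a Trav segment. In HKO, Trbv19 led with 5 of 21 and Trav8d-2 with 5 of 27. The segments of a barcode were not paired into clonotypes, and the pooled livers do not show how many animals these barcodes came from.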

How the data were processed

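The authors deposited UMI counts per gene and barcode, whole numbers from Cell Ranger 7.1.0 per the file headers, for mm10 per the labels, from 10x 3' kits given as version 2. The HKO barcode sequences resemble those of a later version, and the WT kit could not be checked. Options of the counting step were not given in the sources used here. All 32285 genes were listed in both tables, with totals of 130451427 UMIs in WT and 52563185 in HKO. Coordinates are from GENCODE M21 of the same build. WT barcode names were not used here, so shared barcodes were not counted.

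Members and 33 gene lists were chosen with earlier results of these data known. Free RNA was scaled from barcodes within 25% of the commonest depth by 12 hepatocyte genes and subtracted from the summed counts of each class. Genes needed 30 UMIs over both libraries (20 in each for class comparisons). Thinning was 1 random draw per barcode, after which 1249 genes were measured, so thinned ratios of single genes rest on few UMIs. Classes with 0 UMIs were set to 3. Intervals were exact (Clopper-Pearson, Poisson, conditional binomial), and those of medians, over at least 6 genes, came from order statistics. No doublet caller was run. Barcodes over 3 times the median depth, or with 2 markers of B, endothelial, stellate or neutrophil cells, were left out in an alternative. Named were, of each list, the 4 genes with most UMIs and the 2 highest and 2 lowest ratios, and the extremes over all genes (12 and 12 between genotypes, 10 and 10 and 6 and 6 between classes). Other genes were chosen after their values were seen, as were the subsets. Scripts were written in Python 3.11.15 with pandas 2.3.3 for tables, scipy 1.17.1 for intervals and numpy 2.4.6, and were tested on simulated data. A split of the barcodes by naive and effector genes is not reported here.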

Additional observations from a re-analysis of the deposited data

Results flagged for a closer look

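For 6 genes the HKO over WT ratio was past 2-fold in opposite directions in CD8 T cells and in T cells without detected Cd8, with both counting intervals excluding 1. With 1 library per genotype the difference was not tested. Cd5 had a ratio of 3.16 in CD8 T cells and 0.40 in T cells without detected Cd8, and Cd6 had 2.11 and 0.48. Ctla4 had 2.14 and 0.45, and Maf 2.52 and 0.48. Cd160 went the other way, with 0.40 and 2.52. Top2a, a topoisomerase of dividing cells, had 2.35 and 0.17, from 7 WT and 34 HKO UMIs in CD8 T cells, of which 1 HKO barcode held 35.3%, and after thinning to 1000 UMIs the CD8 T cell ratio turned to 0.30. In WT the class without detected Cd8 was 79.4% free or hepatocyte RNA by estimate, which enters each ratio of that class, and its part in these values was not tested.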

How the results depend on the processing

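No paired analysis was possible because each genotype has 1 library. All values rest on 2 libraries and on few UMIs per gene, so depth limits genes under 30 UMIs, and the cause of the changes below was not tested.

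At least 2 Cd8 UMIs left 117 HKO barcodes. Genes past 2-fold towards HKO and towards WT numbered 517 and 405, and 244 and 213 without free RNA subtraction, 160 and 112 after thinning, 1212 and 961 from 10 UMIs, 104 and 88 from 100 UMIs, 262 and 186 with no subtraction and scaling that left out mitochondrial, ribosomal and hepatocyte genes, and 80 and 97 among the 2621 genes with free RNA under 25%. With equal weight per barcode and no subtraction 290 were past it towards HKO. Against T cells without detected Cd8, 36 genes were lower in both libraries without subtraction, and 30 were higher and 94 lower when barcodes with Trdc or Zbtb16 were left out of that class. Against NK and ILC1 cells, 83 were higher and 104 lower without subtraction.

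List medians (log2) moved as follows. The unfolded protein response list, all of whose genes had 25% or more free RNA, was at 0.03, and at -0.46 without subtraction, -0.57 with 2 Cd8 UMIs, and, also without subtraction, -0.56 with equal weights and -0.43 with the other scaling. NK receptors were at -0.80 without deep or marker-positive barcodes, -0.60 after thinning and 0.072 without the NK gene barcodes, where residency genes were at 0.54. Equal weights together with no subtraction gave 0.27 for T cell receptor signalling, 0.10 for effector memory, 0.38 for cytotoxic, 0.82 for inhibitory, 0.50 for auto-aggressive, -0.27 for chemokine receptor and 0.00058 for MHC class I genes. Leaving out subtraction alone gave, in the same order, 0.04, -0.04, -0.0023, 0.60, 0.18, -0.59 and -0.22. Thinning gave 0.44 for cytotoxic genes and 0.47 for cytokines.

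The ratios that changed side of 1 were the following. Fabp5 was at 4.80 (1.73 to 18.5), with 81.1% of its 37 HKO UMIs in 1 barcode. It was at 0.42 with 2 Cd8 UMIs, 0.37 without deep or marker-positive barcodes, 0.61 thinned, 0.45 without NK gene barcodes and 0.95 without the highest barcode. With equal weights and no subtraction, Itga4 (1.12), Ptprc (1.11) and Skap1 (1.12) turned. After thinning by 1 random draw, Eif2s3y (1.78, from 0.52), Il18rap (1.59), Klrd1 (2.95), Ltb (1.29, from 0.68), Skap1 (1.03) and Top2a (0.30) turned. Without the NK gene barcodes, Cd226 (1.05, from 0.58), Klrk1 (1.16) and Xcl1 (2.03) turned. Among the other values of single genes between the genotypes, 116 moved beyond their interval and 1154 did not. The removal of the NK gene barcodes, the removal of deep barcodes from both classes, the other scaling and the limit on free RNA were chosen after seeing the data.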
